A study of Mus musculus with 7 samples.

Results

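Imprinted genes are expressed mainly from 1 of the parental alleles, and most of them lie in clusters ruled by an imprinting control region, a stretch of DNA whose CpG sites are methylated on the allele from 1 parent only. Control regions methylated on the maternal allele are mostly promoters, often of a noncoding RNA or a retrogene, whereas those methylated on the paternal allele lie between genes. ZFP57, a zinc finger protein, binds the methylated allele at many control regions and keeps it methylated, and in blood stem and progenitor cells several imprinted genes, among them H19, Igf2r, Cdkn1c and the genes at the Dlk1/Meg3 cluster, are known for their part in quiescence and growth.

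Chromatin accessibility at 45 imprinted genes in 19 domains was described here, out of 55413 annotated genes on the assembled mouse chromosomes. The members were a list of known imprinted genes and close partners, matched by symbol to GENCODE M21. The list was drawn up with earlier results of these data known. The data were 7 bulk ATAC-seq libraries, named HPC7-1, HPC7-2, HPC7-4, HPC7-5, HPC7-6, HPC7-7 and HPC7-8, each from its own culture batch of HPC7, a mouse hematopoietic progenitor cell line grown with mouse stem cell factor. ATAC-seq cuts accessible DNA with the transposase Tn5, and the open chromatin regions (OCRs) are the peaks called from the cuts. All libraries belong to 1 group by the labels, and all come from 1 cell line, so no condition was compared. The peak names inside 3 of the lists began with VD and those inside the other 4 with EtOH, terms that neither the labels nor the study's methods mention. Whether these cultures were treated alike is not known, and no such split was compared.

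The lists held 84593 OCRs (HPC7-6) to 132852 OCRs (HPC7-1). Each OCR carries a fold enrichment, the reads at its summit over the background of the same library. The lowest fold enrichment listed was 1.68 in HPC7-1 and 2.13 to 2.44 in the other libraries, which corresponded to 12 to 35 reads at the summit. A gene without an OCR was therefore below the calling threshold, and closed chromatin cannot be told apart from DNA that reads could not be placed on. The lists do not tell the parental alleles apart. Promoters of all 8 blood progenitor markers (Kit, Cd34, Gata2, Lmo2, Tal1, Runx1, Spi1 and Ptprc) had an OCR in all 7 libraries, and those of all 4 epithelial markers had none. Of 4 markers each, 2 neuronal, 2 fibroblast and 1 liver promoter were open in all libraries. Tubb3, a neuronal tubulin, was open in 4 libraries (HPC7-1 at 79.0, HPC7-2 at 51.4, HPC7-6 at 2.97 and HPC7-8 at 79.5), and Apoa1, a liver apolipoprotein, in 2 (2.95 in HPC7-1 and 14.0 in HPC7-7).

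A promoter was called open in a library when an OCR reached within 1 kb of any annotated start of the gene. Of the 45 members, 16 were open in all 7 libraries, 5 in some and 24 in none. Of the 37 protein-coding members, 15 were open in all libraries and 19 in none, whereas 55.9% of all protein-coding genes were open in all libraries and 38.2% in none. Of the 8 long noncoding RNA members, 1 was open in all libraries and 5 in none, beside 25.6% and 65.5% of all long noncoding RNA genes. With 3 kb around a start instead, 19 members were open in all libraries and 18 in none, and the shares above, for 1 kb, do not apply to these counts. At the 5′ end of the gene alone, 13 members were open in all libraries and 30 in none, and 51.6% of all protein-coding genes were open there in all libraries.

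The open members were Kcnq1ot1, Cdkn1c, Slc22a18, Ube3a, Mkrn3, Copg2, Gnas, Blcap, Mcts2, H13, Grb10, Ddc, Impact, Zrsr1, Commd1 and Trappc9. Meg3, Zim1, Plagl1, Nnat and Peg13 were open in some libraries. Of these, Zim1, Nnat and Peg13 were open in no library with equal list lengths, and Nnat with a -log10 q of at least 5. Meg3 was open in none with 500 bp around a start, and Meg3, Zim1 and Plagl1 by the 5′ end alone. The closed members were H19, Igf2, Ins2, Kcnq1, Phlda2, Dlk1, Rtl1, Rian, Mirg, Peg3, Usp29, Snrpn, Ndn, Magel2, Mest, Klf14, Peg10, Sgce, Igf2r, Airn, Zdbf2, Nespas, Rasgrf1 and Slc38a4. A subset of 8 of the closed members had neither a promoter OCR nor another OCR within 10 kb of the gene body, namely H19, Snrpn, Ndn, Mest, Klf14, Zdbf2, Nespas and Slc38a4.

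Grouped by the allele known to be expressed, 5 of 25 paternally expressed members and 5 of 14 maternally expressed members were open in all libraries, and 17 and 7 respectively in none. Each of these classes held 4 long noncoding RNAs, and over all genes 55.9% of protein-coding and 25.6% of long noncoding RNA promoters were open in all libraries and 38.2% and 65.5% in none. Ube3a, known to be imprinted in neurons, was counted as maternal. The 5 members put in a class of their own because their imprinting depends on the tissue (Gnas, Blcap, Ddc, Commd1 and Trappc9) were open in all libraries, as was Grb10, maternal in most tissues. The paternally expressed genes that were open in all libraries were Kcnq1ot1, Mkrn3, Mcts2, Impact and Zrsr1.

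Among the 16 open members, HPC7-6 had the lowest fold enrichment for 15 and HPC7-2 for 1 (Cdkn1c), and HPC7-5 had the highest for 7. HPC7-6 also had the shortest list, and its part in these levels was not tested. The plot of fold enrichment by library shows the levels of Cdkn1c, Mkrn3 and Slc22a18 below those of every other open member, with no overlap.

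**Figure D1:**
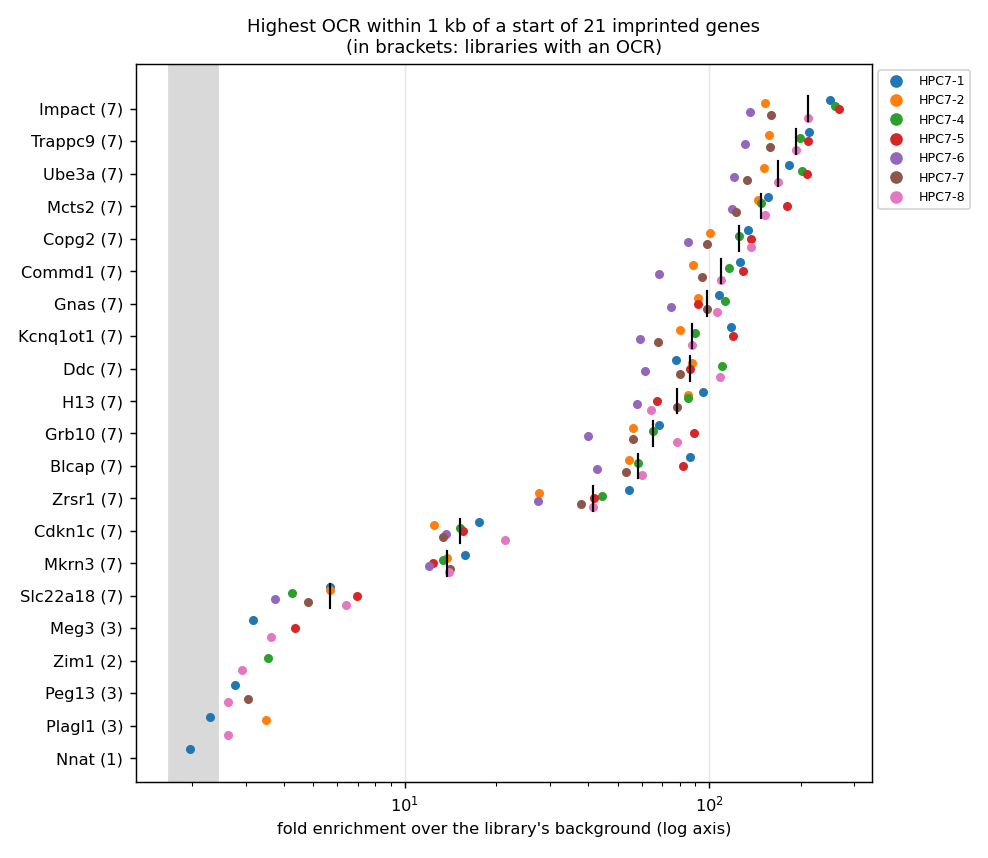
Highest fold enrichment of an OCR within 1 kb of any start (log axis) for the 21 imprinted genes with an OCR in at least 1 library, 1 point per library, with the number of libraries in brackets and a vertical bar at the median of genes open in all 7. The grey band spans the lowest fold enrichment listed in the 7 libraries (1.68 to 2.44), and the 5 genes open in some libraries lie at 4.35 or below.

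Control regions were examined in 20 windows placed from their known positions relative to a gene start. Of these, 16 lay around a start and are methylated on the maternal allele, and 4 lay upstream of a gene and are methylated on the paternal allele. The start of each window and the Gnas exon 1A window were set after values were seen. An OCR overlapped 5 of the 20 windows in all 7 libraries, 3 in some and 12 in none. When the summit had to lie inside the window, 3 were open in all libraries, since a summit lay inside in 1 library at Impact and in 5 at Gnas exon 1A, whose values are those of a summit at the start of the main Gnas transcript. All 5 open windows were of the maternal class: KvDMR1 at Kcnq1ot1, the Gnas exon 1A region, and the regions at Mcts2, Impact and Zrsr1. The paternal windows lie away from starts, and a difference between the classes was not tested. Over all genes, 55.9% of protein-coding and 25.6% of long noncoding RNA promoters were open in all libraries. These shares count any start of a gene, whereas a window covers only 1 place. At the 5′ end alone, the protein-coding share was 51.6%. The windows open in some libraries were those at Plagl1, Peg13 and Nnat. With equal list lengths, Plagl1 had an OCR in 1 library and Peg13 and Nnat in 0. With a -log10 q of at least 5, Plagl1 and Peg13 each had an OCR in 1 library and Nnat in 0. The 12 windows without an OCR were the 4 paternal ones (the H19 DMD, the IG-DMR and the windows upstream of Rasgrf1 and Zdbf2) and 8 maternal ones (Peg3, Snrpn, Mest, Peg10, Airn, Nespas, Grb10 and Slc38a4). The plot of the control windows shows a gap between the 5 open windows, none of which fell below 27.4 in any library, and the 3 partly open ones, none of which passed 3.49.

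**Figure D2:**
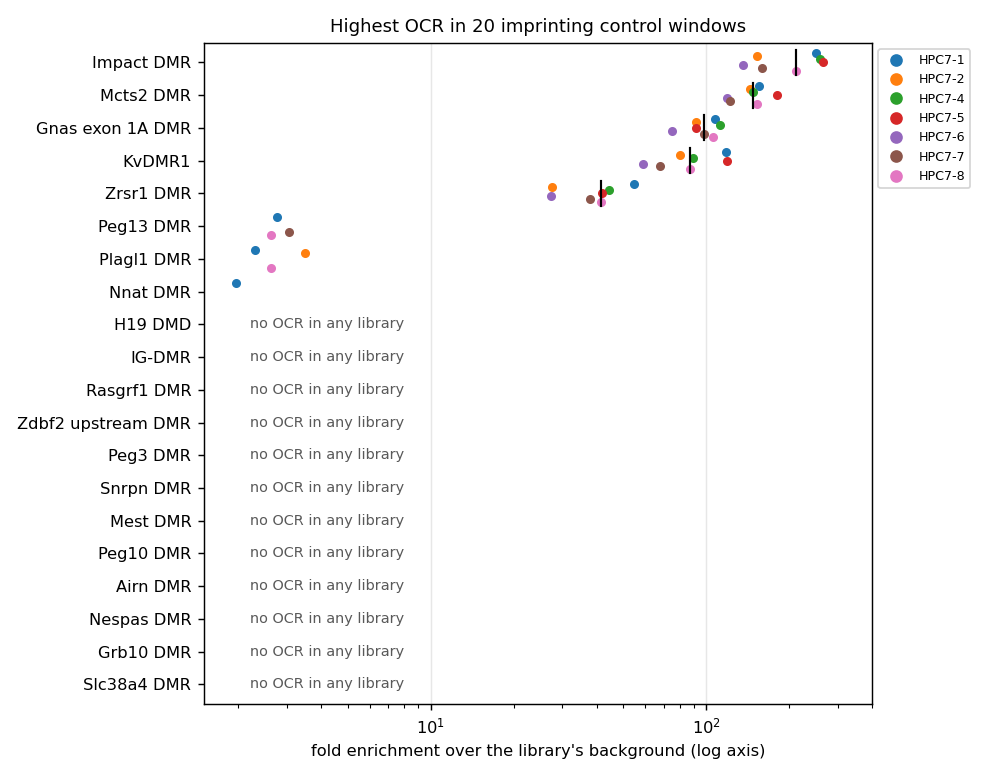
Highest fold enrichment of an OCR overlapping each of 20 imprinting control windows (log axis), 1 point per library and a vertical bar at the median of the windows open in all 7 libraries. The windows fall into 5 with high values in all libraries, 3 with low values in some libraries and 12 without an OCR, and the values of Impact and Gnas exon 1A belong to OCRs whose highest summit lay outside the window in every library.

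The reference sequence (GRCm38, the build of the mm10 lists) of 3 open control regions is shown because these are the elements that were accessible, read 5′ to 3′ on the strand of the gene. Capitals mark matches to TGCCGC, the hexamer bound by ZFP57, or to CCAAT, a common promoter element, on either strand (GCGGCA and ATTGG on the other), each searched separately, and CCAAT was added after the sequences were seen. The first is the OCR at the start of Kcnq1ot1 from 100 bp before to 100 bp after the summit, chr7:143296522-143296722, minus strand, whose end reaches into the first exon of the RNA. The next is the 200 bp before the start of Mcts2, chr2:152686835-152687034, plus strand, in an intron of H13, and the last the 200 bp before the start of Zrsr1, chr11:22971805-22972004, plus strand, in an intron of Commd1.
Kcnq1ot1: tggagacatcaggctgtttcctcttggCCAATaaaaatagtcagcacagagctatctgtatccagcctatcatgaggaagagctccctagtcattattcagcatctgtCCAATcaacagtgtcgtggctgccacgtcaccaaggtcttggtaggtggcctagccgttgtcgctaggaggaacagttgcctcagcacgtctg
Mcts2: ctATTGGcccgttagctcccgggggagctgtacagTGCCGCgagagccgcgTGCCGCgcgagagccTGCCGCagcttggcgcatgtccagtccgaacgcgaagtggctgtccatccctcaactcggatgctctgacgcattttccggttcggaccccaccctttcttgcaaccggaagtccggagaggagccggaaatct
Zrsr1: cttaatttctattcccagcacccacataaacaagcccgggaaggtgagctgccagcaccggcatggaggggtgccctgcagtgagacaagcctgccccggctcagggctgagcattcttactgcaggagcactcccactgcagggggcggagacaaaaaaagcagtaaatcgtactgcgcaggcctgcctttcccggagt

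The Kcnq1ot1 stretch holds 2 CCAAT matches and no TGCCGC. The Mcts2 stretch holds 3 TGCCGC matches, 1 CCAAT match and 21 CpG sites, and the Zrsr1 stretch holds neither motif and 7 CpG sites. Over all protein-coding genes, the 200 bp upstream of the 5′ end held TGCCGC in 8.5% and CCAAT in 31.7%. In the 100 bp on either side of the summit of all OCRs shared by the 7 libraries, the shares were 5.4% and 22.7%.

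Control regions without an OCR are shown for contrast. Snrpn is given for the 200 bp before the start shared with Snurf, chr7:60005112-60005311, minus strand. Peg3 and Usp29, and Sgce and Peg10, are transcribed away from each other, so the whole gap between their 5′ ends is given on the plus strand, chr7:6730432-6730577 and chr6:4747208-4747305.
Snrpn: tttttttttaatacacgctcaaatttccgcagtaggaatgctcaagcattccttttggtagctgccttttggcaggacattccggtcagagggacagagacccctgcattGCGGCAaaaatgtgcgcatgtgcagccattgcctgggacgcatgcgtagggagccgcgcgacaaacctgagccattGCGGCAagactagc
Peg3 and Usp29: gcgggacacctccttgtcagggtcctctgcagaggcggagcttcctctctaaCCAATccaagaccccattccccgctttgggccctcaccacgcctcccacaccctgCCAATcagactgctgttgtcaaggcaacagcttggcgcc
Sgce and Peg10: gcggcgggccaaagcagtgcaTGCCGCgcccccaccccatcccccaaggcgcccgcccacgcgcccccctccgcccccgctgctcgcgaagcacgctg

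The Snrpn stretch holds 2 TGCCGC matches, the Peg3 and Usp29 gap 2 CCAAT matches and the Sgce and Peg10 gap 1 TGCCGC match and 13 CpG sites in its 98 bp. Within 1 kb of the start, TGCCGC was present in 14 of the 16 maternal windows (median 4.5 matches), in all 8 of those without an OCR (median 5) and in 3 of the 5 open in all libraries (median 2), compared with 43% of all protein-coding 5′ ends (median 0). The 2 open windows without TGCCGC were those at Impact and Zrsr1. GCCATNTT, the core bound by YY1, was found in 9 of the 16 windows and in 29.5% of all protein-coding 5′ ends, CCAAT in 16 of 16 and 91.8%, and the CTCF core consensus in 0 of 16 and 1.72%. No CTCF core consensus was found in the H19 DMD window either, which held 5 matches to TGCCGC. A match is only a run of letters, and no match says only that these letters are not in the window.

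In the Kcnq1 domain, the noncoding RNA Kcnq1ot1 starts inside Kcnq1, a potassium channel gene, and is known to silence its neighbours on the paternal allele. The OCR at the Kcnq1ot1 start (chr7:143294230-143297303) had a fold enrichment of 59.1 at the lowest, 87.5 at the median and 119 at the highest of the 7 libraries, and sets of 3 values below are given in this order. Its summit had 377 to 2519 reads and lay 106 to 44 bp upstream of the start in every library. Cdkn1c, which encodes a cell cycle inhibitor, had an OCR (chr7:143460820-143462086) at 12.5, 15.1 and 21.4. Slc22a18, a transporter gene, was lower again at 3.75, 5.66 and 6.96 (chr7:143473459-143473916). The ranges of these 3 genes did not overlap. Neither any of the Kcnq1 starts nor Phlda2, a growth-restraining gene of the placenta, had an OCR, although Phlda2 had OCRs in all libraries at chr7:143505804-143507129 (7.04, 9.74 and 13.7) and gained a call when 3 kb around a start was used.

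Within Kcnq1, 5 intronic OCRs were shared by the 7 libraries, and the highest (chr7:143180631-143181421) stood at 16.9, 25.0 and 31.3. Upstream of Cdkn1c, toward Slc22a18, 3 OCRs between genes were shared at medians of 6.50, 7.48 and 8.61, and the first pair (chr7:143463848-143464324 and chr7:143466157-143466767) each held the CTCF core consensus 22 and 37 bp from the summit. A further match lay in an exon of Slc22a18 (chr7:143480483-143481045, median 7.86). Of the 9 neighbours of the domain that were not members, 8 were open in all libraries and only Ascl2 in none.

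**Figure D3:**
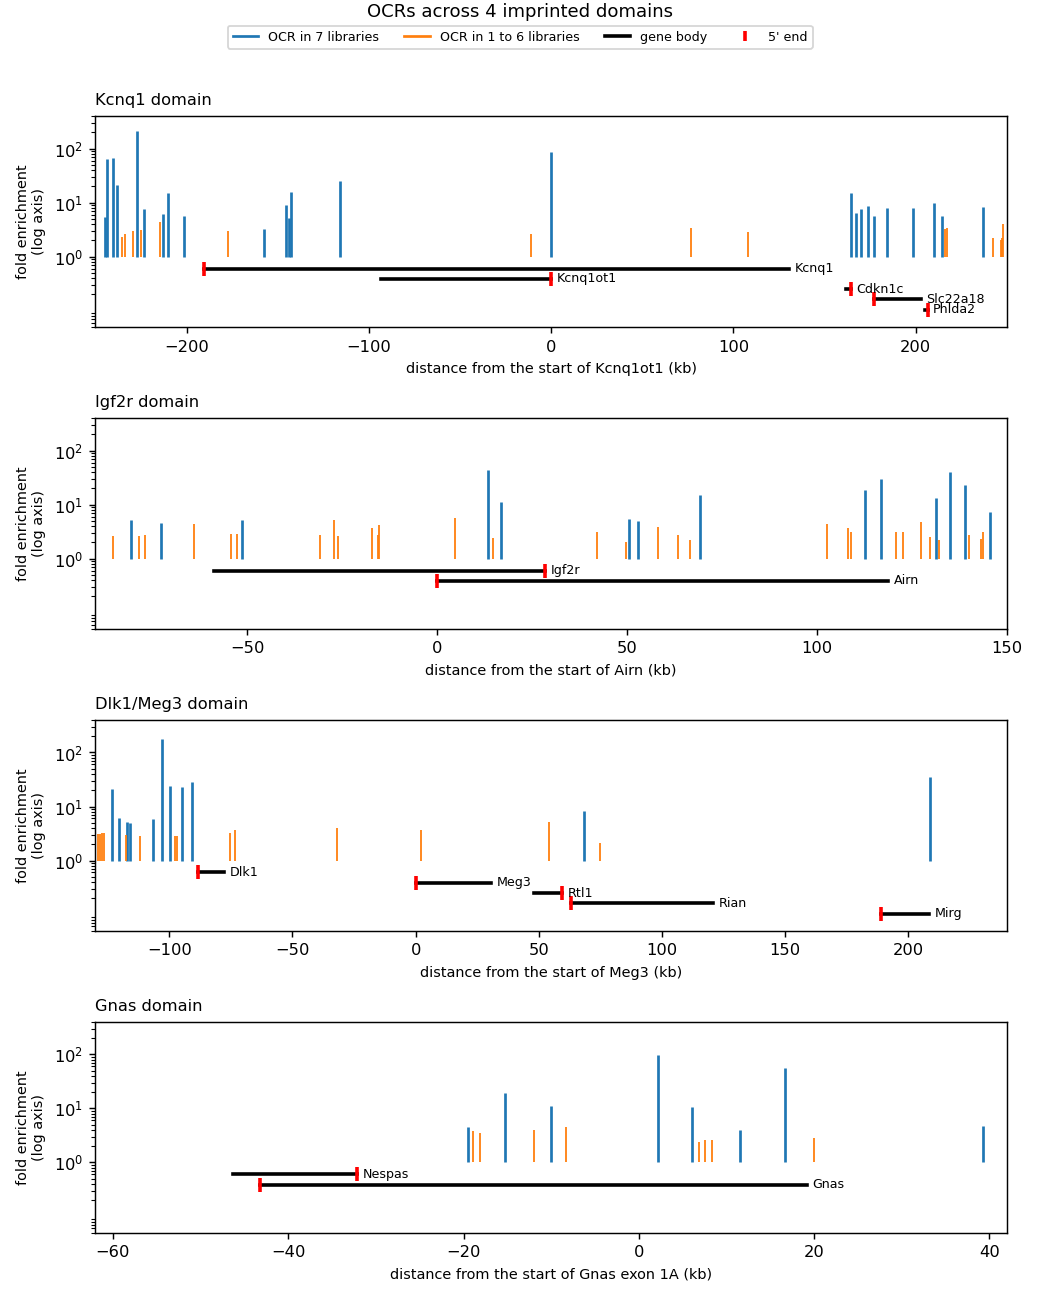
Every OCR (vertical lines, height the median fold enrichment over the libraries that had it, log axis) across the Kcnq1, Igf2r, Dlk1/Meg3 and Gnas domains, by distance in kb from the start named under each panel, with gene bodies (black) and 5′ ends (red) below. Kcnq1ot1 and Gnas exon 1A have an OCR of all 7 libraries (blue) at or just beside the start, whereas the starts of Airn and Meg3 have none, and the OCR nearest to the Meg3 start, 1892 bp away, was found in some libraries (orange).

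In the H19/Igf2 domain, the noncoding RNA H19, the growth factor gene Igf2 and the insulin gene Ins2 had no promoter OCR in any library. H19 had no OCR within 10 kb, and the nearest lay 32511 bp from its 5′ end. The H19 DMD window (chr7:142580143-142582143), the paternally methylated region between the 2 genes where CTCF is known to bind, lay in a stretch of 67.7 kb without any OCR. An OCR between Igf2 and Ins2 (chr7:142675621-142676074) was shared at a low level of 5.32, 7.13 and 9.47. Around the domain, 4 of 6 neighbours were open in all libraries, among them the mitochondrial ribosomal gene Mrpl23 at 39.6, 47.9 and 75.4.

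In the Dlk1/Meg3 domain, Dlk1 (a membrane ligand), Rtl1 (a gene derived from a retrotransposon) and the noncoding RNAs Rian and Mirg had no promoter OCR. The noncoding RNA Meg3 had none at its 5′ end, and a low one at a start 1022 bp downstream (chr12:109542893-109543204) in HPC7-1, HPC7-5 and HPC7-8 at 3.18, 4.35 and 3.64. The IG-DMR window (chr12:109525001-109531001) had no OCR and lay in a gap of 33.4 kb. Upstream of Dlk1 a pair of OCRs between genes was open in all libraries, one (chr12:109449300-109451041) at 16.4, 29.0 and 32.6 and the other (chr12:109444976-109446953) at 14.5, 23.0 and 29.4. The nearer of the pair ended 1782 bp before the 5′ end of Dlk1. At the 3′ end of Mirg an OCR (chr12:109749285-109750786) stood at 24.2, 34.5 and 42.5. Farther out than 10 kb from Dlk1, the map of the domain shows a higher OCR of all 7 libraries at -103 kb from the Meg3 start, with a median of 176. Begain, Wdr25 and Yy1, on the far side of Dlk1, were open in all libraries and Dio3 in none.

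The sequence of the OCR nearer to Dlk1 is given because it was the highest OCR between genes within 10 kb of a member at this cluster. It spans 100 bp on either side of the summit, chr12:109449966-109450166, plus strand, and holds 2 CCAAT matches that lie side by side as ATTGG on this strand.
Dlk1 upstream: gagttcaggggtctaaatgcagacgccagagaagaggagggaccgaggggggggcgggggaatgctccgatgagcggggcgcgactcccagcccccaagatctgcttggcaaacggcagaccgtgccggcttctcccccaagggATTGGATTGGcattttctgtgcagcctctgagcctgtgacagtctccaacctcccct

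In the Igf2r domain, Igf2r, the receptor that clears IGF2, and Airn, the noncoding RNA that starts in an intron of Igf2r and runs against it, both lacked a promoter OCR in every library. The 5′ end of Igf2r lay 11235 bp and that of Airn 4493 bp from the nearest OCR, and the gap without any OCR at the Airn start was 19.5 kb. In contrast, 8 OCRs were shared by all libraries across the span of the domain, or 45.0 per Mb, compared with 24.6 per Mb over all assembled chromosomes. The highest (chr17:12754400-12755648), in an intron of both genes and 13467 bp downstream of the Airn start, stood at 26.3, 43.2 and 49.6. Near the end of Airn another (chr17:12857128-12858744) stood at 24.2, 30.3 and 35.9, and the neighbour Mas1 was open in all libraries at 13.4, 18.6 and 22.1. Elements inside this domain were thus accessible while the promoters of both members were not called.

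The 200 bp before each start are shown because these 2 promoters on opposite strands differ in base composition, together with 100 bp on either side of the summit of the intronic OCR, on the strand of Igf2r (chr17:12754678-12754878). Igf2r is chr17:12769665-12769864, minus strand, and Airn is chr17:12741111-12741310, plus strand.
Igf2r: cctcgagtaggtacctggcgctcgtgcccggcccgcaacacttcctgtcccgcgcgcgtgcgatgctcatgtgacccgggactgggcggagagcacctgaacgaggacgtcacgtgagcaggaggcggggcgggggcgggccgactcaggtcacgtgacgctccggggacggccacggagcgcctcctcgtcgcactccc
Airn: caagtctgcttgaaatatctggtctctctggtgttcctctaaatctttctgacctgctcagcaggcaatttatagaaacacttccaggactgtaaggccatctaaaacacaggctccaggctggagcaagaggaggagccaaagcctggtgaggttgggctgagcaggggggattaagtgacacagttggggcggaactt
Intronic OCR: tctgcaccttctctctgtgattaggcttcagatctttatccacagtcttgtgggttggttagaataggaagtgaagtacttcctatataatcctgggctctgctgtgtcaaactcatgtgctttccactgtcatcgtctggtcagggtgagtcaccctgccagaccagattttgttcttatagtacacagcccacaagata

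The Igf2r stretch holds 27 CpG sites and the Airn stretch 1. None of the 3 stretches holds TGCCGC or CCAAT.

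In the Snrpn domain, the splicing protein gene Snrpn and the MAGE family genes Ndn and Magel2 had no promoter OCR, while the ubiquitin ligase genes Ube3a and Mkrn3 had one in all libraries. Ube3a, imprinted in neurons, was among the highest members at 121, 169 and 210 (chr7:59227761-59230019), or the 98.6th to 99.1st percentile of the OCRs of a library. Mkrn3, a gene without introns, stood at 12.0, 13.8 and 15.7 (chr7:62419074-62420481). The Snrpn control window (chr7:60004111-60006111) lay in a stretch of 467 kb without any OCR, the longest gap around any of the 12 closed windows. Over the 3191 kb of the domain 7 OCRs were shared by all libraries, or 2.19 per Mb. A shared OCR lay 533 bp past the end of Magel2 (chr7:62382173-62382858; 10.8, 13.8 and 15.7) and held the CTCF core consensus. The 5′ end of Magel2 lay 1004 bp from the nearest OCR, just outside the distance used here.

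In the Peg3 domain, the zinc finger gene Peg3 and the ubiquitin protease gene Usp29, which share a promoter region, were closed. Their control window (chr7:6729419-6731431) lay in a gap of 191 kb. The gap lay almost wholly to one side of the window, with an OCR of some libraries 1742 bp away on the other. With 3 kb around a start, Peg3 and Usp29 were open in some libraries. Zim1, another zinc finger gene, had an OCR at an internal start (chr7:6688767-6689105) in HPC7-4 (3.55) and HPC7-8 (2.91). A single OCR in the span of the domain was shared by all libraries, in an intron of Usp29 (chr7:6937073-6937557; 5.24, 5.57 and 8.01), and it held the CTCF core consensus. None of the 3 neighbours, Zim2, Zim3 and Zfp264, was open.

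Peg10, a gene of retrotransposon origin needed for the placenta, and Sgce, a sarcoglycan gene, start 99 bp apart and were both closed, with a gap of 28.7 kb. Of the shared OCRs nearby, that past the end of Peg10 (chr6:4762283-4762671) stood at 6.98, 7.43 and 12.0. Mest, a hydrolase gene, was closed at all of its starts, with a gap of 91.4 kb around its control window (chr6:30737050-30739055), and the transcription factor gene Klf14 was closed as well. Copg2, which encodes a coat protein of transport vesicles and overlaps the end of Mest, was open at 84.9, 126 and 137 (chr6:30895745-30897703).

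Gnas, which encodes the stimulatory G protein alpha subunit (Gsα), has several alternative starts, and these differed. The 5′-most start cluster (Nesp), the next cluster 13539 bp downstream (XLas) and the antisense RNA Nespas had no OCR in any library, and the Nespas window lay in a gap of 109 kb. The exon 1A start (43250 bp from the 5′ end) and the Gsα start (45686 bp) lay in 1 OCR of 6077 bp (chr2:174325714-174331790) at 75.1, 98.6 and 112. Its highest summit was 2223 to 2290 bp downstream of the exon 1A start, at the Gsα start, and 5 of 7 libraries had a summit inside the exon 1A window as well. A further start near the end of the gene (chr2:174343082-174345246) was open at 45.4, 57.2 and 60.9. Between the XLas and exon 1A starts, an intronic OCR (chr2:174310843-174313160) stood at 15.2, 19.1 and 21.7.

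Several imprinted genes, some of them retrogenes, lie inside an intron of a host gene, and these differed. Mcts2, in H13 (a signal peptide peptidase gene), had an OCR (chr2:152686056-152688270) at 119, 148 and 180, with its summit 52 to 40 bp upstream of the start in every library. H13 stood at 57.7, 78.5 and 95.4 by the highest peak within 1 kb of a start. The merged OCR over its 5′ end (chr2:152669120-152672488), which in HPC7-5 and HPC7-8 held another, higher peak farther from the start, stood at 57.7, 85.3 and 108, with its summit at 152671852 inside the gene. When the summit had to lie within 1 kb of a start, the mean at H13 was 22.9 instead of 76.2. Zrsr1, a splicing factor gene in an intron of Commd1 (a regulator of copper transport and NF-kappaB), stood at 27.4, 41.7 and 54.5 (chr11:22971663-22974090), and Commd1 at 68.5, 109 and 129 (chr11:22980992-22983000).

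Nnat, a small membrane protein gene in an intron of Blcap, had an OCR in HPC7-1 only (chr2:157560202-157560461), at 1.97, which is below the lowest value listed in the other 6 libraries. Blcap was open at 42.7, 58.2 and 86.2 at an internal start cluster 4913 bp from its 5′ end (chr2:157565441-157568254) and at 5.63, 7.57 and 11.5 at the 5′ end itself. Peg13, a noncoding RNA in an intron of Trappc9, had an OCR in HPC7-1 (2.76), HPC7-7 (3.06) and HPC7-8 (2.62) (chr15:72809807-72810212). Trappc9, a subunit of a vesicle tethering complex, was open at 131, 193 and 213 (chr15:73059679-73062177). It had 27 other shared OCRs within 10 kb of its body, the most of any member, but its body was also the longest, at 472 kb. Per Mb, its domain held 57.3 shared OCRs, fewer than the Grb10 domain (93.5) among others. The 27 included intronic ones at 105, 146 and 180 (chr15:72927927-72930136) and one upstream at 139, 186 and 218 (chr15:73066522-73068673). The highest OCR near Peg13 (chr15:72800520-72803033) stood at 24.4, 39.5 and 46.7.

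Grb10, an adaptor of insulin signalling, had no OCR at its 5′ end, at its first 6 start clusters or in its control window (chr11:12025324-12027732), which lay in a gap of 75.2 kb. It was open at an annotated start 100067 bp downstream of the 5′ end (chr11:11939446-11940132, an intron) at 40.0, 65.6 and 89.1. This call was lost when 500 bp around a start or the position of the summit was used. Within Grb10 another intronic OCR (chr11:11973113-11973858) stood at 26.4, 40.4 and 60.6. Ddc, the decarboxylase of dopamine and serotonin synthesis, was likewise closed at its 5′ end and open at an internal start 61864 bp downstream (chr11:11836190-11838309) at 61.6, 86.5 and 110. By the 5′ end alone, both would count as closed.

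Impact, a regulator of translation under amino acid shortage, had the highest median of the members when any start was counted, at 136, 211 and 266, although Trappc9 was higher in HPC7-2 (158 against 152). The values came from an OCR on chromosome 18 from 12971357 to 12974778 over its downstream start clusters. At its 5′ end, 16071 bp upstream, it stood at 36.1, 56.9 and 66.4. The summit of the high OCR lay 1407 to 1424 bp past the first downstream start, beyond the control window, and 1 library had another summit inside the window. Plagl1, a zinc finger gene that restrains growth, had an OCR at its main start cluster (chr10:13090893-13091227) in HPC7-1 (2.29), HPC7-2 (3.49) and HPC7-8 (2.62). Zdbf2 (a zinc finger gene), Rasgrf1 (a Ras exchange factor) and Slc38a4 (an amino acid transporter) had no promoter OCR, no OCR in all libraries anywhere in their bodies, and gaps of 158, 84.2 and 181 kb around their control windows. The gap at Rasgrf1 lay almost wholly to one side of its window, with an OCR called in HPC7-1 alone 147 bp away on the other.

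Levels of neighbouring promoters were compared within each library, since both values then share a background. Of 18 pairs of members, picked by hand within domains and not all those possible, 6 had 1 promoter open in all libraries and the other in none, and 4 were closed at both. In another 4 both promoters had an OCR in all libraries, with separate highest OCRs, and these could be tested. The OCR of Zrsr1 also holds a start of Commd1. All 4 tested pairs had a called order by an exact two-sided sign-flip permutation test over the 7 libraries with Benjamini-Hochberg adjustment over 117397 gene pairs, of which 90.9% had a called order. A called order is thus the usual state of a pair of neighbours, and p-values measure the spread between these libraries.

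Kcnq1ot1 was higher than Cdkn1c by 2.49 ± 0.34 on the log2 scale (SD, n = 7) in 7 of 7 libraries, a 5.62-fold difference (adjusted p = 0.0177 by the exact permutation test). Mcts2 was higher than H13 by 0.95 ± 0.30 in 7 of 7 libraries (adjusted p = 0.0177, same exact test). Zrsr1 was lower than Commd1, with a log2 difference of -1.42 ± 0.17 and 0 of 7 libraries in which Zrsr1 was higher (adjusted p = 0.0177, same exact test). A Commd1 start lies inside the Zrsr1 OCR, so with any start counted Commd1 could not be lower, and this direction was fixed. At the 5′ ends alone, where the 2 OCRs are separate, the difference was also -1.42 (adjusted p = 0.0178, same exact test). Grb10 was lower than Ddc, with a log2 difference of -0.45 ± 0.28 and 1 library (HPC7-5) against the others, and its adjusted p was 0.0344 by the same exact test. Without any 1 of the other 6 libraries (HPC7-1, HPC7-2, HPC7-4, HPC7-6, HPC7-7 or HPC7-8) the Grb10 call was lost, at adjusted p of 0.0679 to 0.0683 by the same exact test. The log2 difference stayed at -0.395 to -0.490. With 6 libraries and HPC7-5 against the others this test cannot pass the threshold, so the lost call decides nothing. An unadjusted p of 0.0156 is the smallest that 7 libraries allow. By the 5′ ends alone, where Mcts2 minus H13 was also 0.95, the 2 retrogene and host pairs therefore had opposite orders, Mcts2 above its host and Zrsr1 below.

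**Figure D4:**
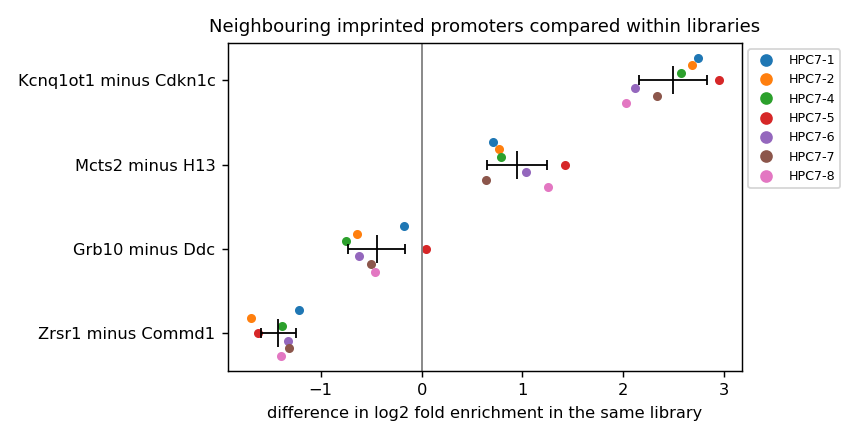
Difference in log2 fold enrichment between 2 neighbouring imprinted promoters in the same library, 1 point per library, with the mean (vertical bar) and SD (horizontal bar) over 7 libraries and a line at no difference. The libraries of the first 2 pairs lie right of the line, those of Zrsr1 minus Commd1 left of it, and for Grb10 minus Ddc HPC7-5 lies just right of it. Zrsr1 minus Commd1 could not lie right of the line, because a Commd1 start lies in the Zrsr1 OCR.

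Base composition was compared because CpG-rich promoters are accessible in most cell types. A 5′ end was called CpG-rich when the 500 bp on either side had at least 50% G and C and a CpG observed over expected ratio of at least 0.6, an analysis chosen after the values were seen. Of the 18 members with a CpG-rich 5′ end, 8 were open there in all libraries and 9 in none, whereas among all 11100 CpG-rich 5′ ends 81.5% were open in all libraries and 16.3% in none. The 9 closed ones were Peg3, Usp29, Klf14, Peg10, Sgce, Igf2r, Zdbf2, Gnas at its 5′ end and Rasgrf1. Igf2r had 68.8% G and C with a ratio of 0.90, and Klf14 60.2% with 1.11, compared with 64.6% and 0.92 at the open Ube3a. Of the 27 members with a CpG-poor 5′ end, 5 were open there in all libraries, beside 22.8% of all such 5′ ends. The starts in 9 control windows were CpG-rich, and 3 of these had an OCR in all libraries (Gnas exon 1A, Mcts2 and Zrsr1) and 4 in none (Peg3, Mest, Peg10 and Grb10).

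Away from the promoters of members, 233 OCRs lay within 10 kb of a member's body, 103 of them in all 7 libraries and 37 in 1, promoters of genes that are not members (Fignl1, Cct4 and Mas1 among them) included, and over the genome 46.2% of merged OCRs were found in all libraries. Of the 103, 69 were intronic, 15 overlapped an exon and 19 lay between genes. The 100 bp on either side of their summits held the CTCF core consensus in 8 (7.77%), compared with 5.99% of all shared OCRs, and TGCCGC in 12 (11.7%), compared with 5.4%. Domains differed widely in how many shared OCRs they held per Mb of their span, the promoter OCRs of members now included. Zdbf2, Rasgrf1 and Slc38a4 had 0, in short spans of 41.3, 117 and 61.1 kb. The Snrpn, Peg3 and Dlk1/Meg3 domains had 2.19, 3.38 and 6.74. The Gnas, Impact, Zrsr1, Nnat and Mcts2 domains had 107 to 153. These rest on 2 (Nnat) to 10 (Zrsr1) shared OCRs in spans of 14.9 to 86.2 kb. Both in the Nnat span were promoter OCRs of Blcap. Every member was open in all libraries in 4 domains (Mcts2, Grb10, Impact and Zrsr1) and in none in 6 (H19/Igf2, Peg10, Igf2r, Zdbf2, Rasgrf1 and Slc38a4). By the 5′ end alone, both members of the Grb10 domain were closed. In 4 domains (Kcnq1, Snrpn, Mest and Gnas) an open and a closed member lay together. Of 67 neighbours of the domains that are not members, 45 were open in all libraries, 6 in some and 16 in none, beside 55.9% of all protein-coding genes open in all libraries and 38.2% in none.

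Of 21 genes that set, keep or read imprints, 18 had a promoter OCR in all 7 libraries, 1 in some and 2 in none, beside 55.9% of all protein-coding genes open in all libraries and 38.2% in none. Zfp57, which keeps imprints in embryonic cells, was open at 31.4, 54.2 and 60.0, and Zfp445, which acts alongside it, at 24.1, 34.2 and 53.2. The maintenance DNA methyltransferase gene Dnmt1 stood at 88.7, 112 and 138 and its partner Uhrf1 at 115, 152 and 186. Smchd1, a chromatin protein that represses imprinted clusters, stood at 153, 216 and 262. Dnmt3l, the methyltransferase cofactor of germ cells, had an OCR in 1 library at 2.85, and the oocyte gene Dppa3 and the germ cell gene Ctcfl had none.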

How the data were processed

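Bulk ATAC-seq peak lists of 7 HPC7 libraries were used. The authors trimmed adapters with Cutadapt, aligned reads to mm10 with BWA and called peaks per library with MACS2, and versions and options are not given in the sources used here. The deposited columns hold a fold enrichment (a ratio of summit reads to the library's background), a -log10 p and -log10 q, a score and a summit offset, with no normalization between libraries. In every library 100% of fold enrichments were whole multiples of 1 step (tolerance 0.05 steps), which gave the reads at a summit.

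Starts came from GENCODE M21 and sequences from GRCm38, whose 21 chromosomes no peak overran. A promoter took the highest peak overlapping 1 kb on either side of any start, and OCRs of different libraries were merged from 1 bp of overlap. Member pairs were listed by hand, and all gene pairs with 5′ ends within 500 kb were compared by an exact sign-flip permutation test (128 sign patterns, adjusted p under 0.05), checked on simulated data. Analyses used Python 3.11.15, pandas 2.3.3, numpy 2.4.6, pysam 0.24.0 and samtools 1.23.1. Members, lists and windows were chosen with earlier results of these data known, and the start of each control window and the Gnas exon 1A window were set after values were seen. Every member was named with its number of libraries, and members at control regions, in pairs or open in some libraries with their values.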

Additional observations from a re-analysis of the deposited data

Results flagged for a closer look

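Dixon's test for an outlying highest or lowest library was applied to 46 quantities over the 7 libraries. These were the promoters of members open in all libraries, and other shared OCRs near members with a median fold enrichment above 20. In 0 of them was the highest or lowest library farther from its neighbour than Dixon's critical value for 7 values allows.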

How the results depend on the processing

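The count of members open in all libraries was 13 to 19 under the alternatives and 16 without any 1 library, and that of members open in none 18 to 30, and 24 to 25 without 1 library. With 3 kb around a start, Phlda2, Dlk1 and Mirg became open in all libraries, and Peg3, Usp29 and Magel2 in some. Member pairs with a called order numbered 3 to 5, and 3 to 4 without 1 library. Other OCRs shared near members were 171 within 50 kb of the gene body instead of 103 within 10 kb, 89 to 96 under the other alternatives, and 103 to 122 without 1 library, the highest without HPC7-6. Control windows open in all libraries were 3 when the summit had to lie in the window, since the highest summits at Impact and Gnas lay outside it in every library and another summit lay inside in only 1 and 5 libraries, and 5 without any 1 library. With every start of the anchor gene there were 6, and without the Gnas exon 1A window 4, both chosen after seeing the data. Of 249 single values under an alternative, 240 kept their call or stayed within 1 SD, 6 lost their call, 3 moved by more than 1 SD and 0 reversed. Those that moved were H13, and Blcap and Impact at the 5′ end only. The 6 lost calls were Grb10 against Ddc without 1 library, at log2 differences of -0.395 to -0.490. With HPC7-5 against the others, the test on 6 libraries could not pass the threshold. Left without a value, and not among the 249, were Grb10 with 500 bp or the summit, Gnas, Grb10 and Ddc at the 5′ end only, and the order of Grb10 and Ddc with 500 bp or the 5′ end only. No paired comparison of groups was possible because all libraries belong to 1 group. The lowest fold enrichment listed was 1.68 in HPC7-1 and 2.13 to 2.44 in the others. Members open in no library numbered 27 with equal list lengths and 25 with a -log10 q of at least 5, instead of 24. Beyond these settings and leaving out each library, the part of depth in the closed calls was not tested.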
